A study of Mus musculus with 12 samples.

Results

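Expression of 9 genes known from mast cells, basophils and eosinophils was followed in leukaemia cells through chemotherapy. The genes were Hdc, Prg2, Prg3, Siglecf, Epx, Cpa3, Ms4a2, Mcpt8 and Fcer1g, taken by symbol from tables of 24346 symbols, and each matched 1 entry. They were selected on their FPKM in these 12 libraries across the relapse, iCT and vehicle groups, so their values and differences are a description and carry no test. The cells were GFP+ acute myeloid leukaemia cells with an MLL-AF9 transgene, sorted from the bone marrow of 12 mice, with 1 RNA-seq library per mouse. In the relapse group (n = 4) marrow was taken 10 days after doxorubicin and cytarabine had ended, and in the iCT group (induction chemotherapy, n = 3) 3 days after. The mice of the vehicle group (n = 5) were given vehicle. MLL-AF9 is a fusion oncoprotein of human acute leukaemia, doxorubicin poisons topoisomerase and cytarabine is a nucleoside analogue. The sources used here do not give strain, age, the promoter of the transgene or the share of host cells within the GFP gate.

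Mast cells, basophils and eosinophils arise in the marrow from myeloid progenitors and store their mediators in granules. Histamine is made by the decarboxylase Hdc, the basic proteins Prg2 and Prg3 and the peroxidase Epx fill eosinophil granules, and the proteases Cpa3 and Mcpt8 belong to mast cell and basophil granules. On mast cells and basophils the IgE receptor has an IgE-binding alpha chain (Fcer1a), a beta chain (Ms4a2) and a signalling gamma chain (Fcer1g), and the gamma chain also serves IgG receptors of other myeloid cells. Siglecf is an inhibitory lectin of mouse eosinophils that binds sialic acid. Several of these genes are also transcribed in immature myeloid cells, so their RNA alone does not name a cell.

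The DNA before 4 of the genes is shown because GATA factors, which bind GATA motifs, are known regulators of these lineages. The windows are the 250 bases before the annotated start, on the strand of the gene, from RefSeq on GRCm38. Hdc (chr2:126618679-126618928, minus strand), Siglecf (chr7:43351091-43351340, plus strand) and Prg3 (chr2:84987965-84988214, plus strand) were the members with the lower iCT levels described below, and Ms4a2 (chr19:11623720-11623969, minus strand) held the most matches. Capitals mark GATAA or its reverse complement TTATC.
Hdc: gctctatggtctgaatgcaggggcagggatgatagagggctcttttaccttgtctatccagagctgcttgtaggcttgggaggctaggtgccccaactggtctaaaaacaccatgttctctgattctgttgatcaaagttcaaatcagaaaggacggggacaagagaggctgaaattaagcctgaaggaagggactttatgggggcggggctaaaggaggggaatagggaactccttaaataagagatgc
Siglecf: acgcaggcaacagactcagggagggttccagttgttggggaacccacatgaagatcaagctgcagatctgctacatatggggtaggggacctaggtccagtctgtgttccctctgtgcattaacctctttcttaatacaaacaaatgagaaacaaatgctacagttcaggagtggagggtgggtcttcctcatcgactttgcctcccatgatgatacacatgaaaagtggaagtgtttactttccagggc
Prg3: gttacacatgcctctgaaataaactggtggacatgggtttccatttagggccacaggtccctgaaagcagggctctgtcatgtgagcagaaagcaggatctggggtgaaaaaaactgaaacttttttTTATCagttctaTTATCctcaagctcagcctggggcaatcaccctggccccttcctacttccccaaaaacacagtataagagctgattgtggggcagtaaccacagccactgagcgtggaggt
Ms4a2: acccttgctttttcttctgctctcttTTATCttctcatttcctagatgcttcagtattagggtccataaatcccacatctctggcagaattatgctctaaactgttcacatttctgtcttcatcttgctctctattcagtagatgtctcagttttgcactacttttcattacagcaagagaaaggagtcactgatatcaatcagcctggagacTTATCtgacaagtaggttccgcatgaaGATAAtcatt
Of the 9 members 8 had such a window, all but Prg2. GATAA was found on either strand in 3 of these 8 windows, with 3 matches before Ms4a2, 2 before Prg3 and 1 before Cpa3, and in 22.5% of 32526 windows of all genes. TGTGGT, a RUNX motif, was in the windows of Prg3, Cpa3 and Mcpt8 and in 14.0% of all. GAGGAA, a PU.1 motif, was in those of Siglecf and Mcpt8 and in 23.4% of all, and TATAAA in those of Epx and Cpa3 and in 12.3% of all. TTGCNNAA, a C/EBP motif, was in 0 of the 8 windows and in 9.6% of all. No match of one motif overlapped a match of another in these windows, and the Hdc window held none of the 5 motifs.

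Levels are given in FPKM, fragments per kilobase of transcript and per library size, which allows levels of different genes to be compared per length. The tables held no fragment counts, but their 95% intervals implied 362268 fragments for iCT mouse 1 and 1226471 to 8362627 for the other 11 libraries. In iCT mouse 1 the median gene at 1 FPKM or more rested on 14.1 implied fragments, against 44.3 to 295 elsewhere. This library stood apart in depth, so the members' differences that involve iCT are given with and without it. Each interval belongs to 1 library and does not cover the spread between mice. Implied fragments are estimates and not counts, and for Ms4a2 in relapse mouse 4 the figure was 0.196 at 0.0930 FPKM.

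**Figure D1:**
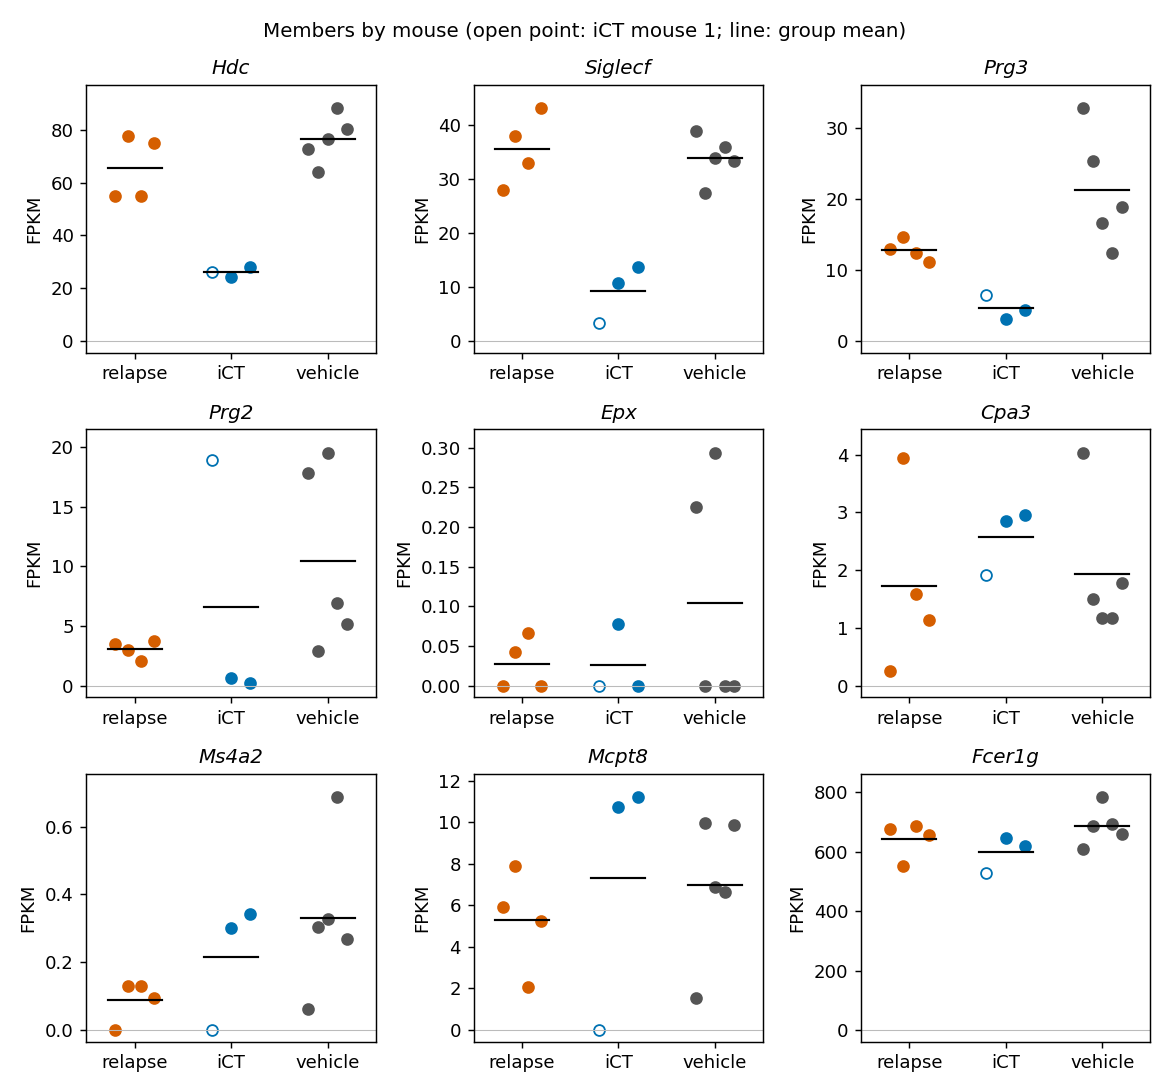
FPKM of each of the 9 members in every mouse, by group, with its own axis per gene; the line is the group mean and the open point is iCT mouse 1. Hdc, Siglecf and Prg3 lie lower in all 3 iCT mice than in any other mouse, while Epx and Ms4a2 stay under 1 FPKM in all 12.

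The members spanned a wide range of levels. Fcer1g averaged 649.7 FPKM over the 12 libraries, more than 98.2% of the 11019 genes tested, and Hdc at 60.2 FPKM exceeded 85.3% of them. Siglecf averaged 28.2 FPKM, Prg3 14.3, Prg2 7.02, Mcpt8 6.5 and Cpa3 2.02. Ms4a2 at 0.220 FPKM and Epx at 0.0587 FPKM reached 1 FPKM in no library, so both failed the filter for testing, which 7 of the 9 passed. Spread between mice differed as widely. The SD of log2(FPKM + 1) within groups was 0.14 for Fcer1g and 0.20 for Hdc, below the median of 0.26 over all genes tested, and 1.27 for Prg2 and 1.195 for Mcpt8.

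Hdc, histidine decarboxylase (chromosome 2, 126593660 to 126618678, minus strand, GRCm38), was the most abundant member after Fcer1g. It stood at 54.8, 77.5, 54.9 and 74.9 FPKM in relapse mice 1 to 4, at 26.3, 24.3 and 28.1 FPKM in iCT mice 1 to 3, and at 72.8, 64.2, 76.5, 88.2 and 80.4 FPKM in vehicle mice 1 to 5. Every iCT mouse was lower than every other mouse, and the relapse and vehicle mice overlapped. The iCT mean of 26.2 ± 1.93 FPKM (SD, n = 3) was 34.3% of the vehicle mean of 76.4 ± 8.91 FPKM (n = 5), and the relapse mean was 65.5 ± 12.4 FPKM (n = 4). The log2 difference was -1.503 (SE 0.14) in iCT against vehicle, 1.27 (SE 0.15) in relapse against iCT and -0.23 (SE 0.13) in relapse against vehicle. Leaving out iCT mouse 1, where the value rested on 23.7 implied fragments, gave -1.505 for iCT against vehicle and 1.27 for relapse against iCT.

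Few of the genes that carry, destroy or sense histamine were expressed. Of 12 listed genes 3 were tested, and 4 stood at 0 in all libraries, among them the histaminase gene Aoc1 and the receptor gene Hrh4. Slc22a3, an organic cation transporter that takes up histamine, averaged 33.2 ± 3.62 FPKM in relapse mice, 12.8 ± 1.68 in iCT mice and 32.3 ± 4.87 in vehicle mice. It fell in iCT against vehicle (log2 -1.26, SE 0.14, adjusted p = 0.000323 by limma) and rose in relapse against iCT (log2 1.31, SE 0.14, adjusted p = 0.000593), and passed under all 21 alternative settings in each comparison. Hnmt, the methyltransferase that inactivates histamine, had means of 12.6 ± 2.44 FPKM in relapse, 13.4 ± 5.36 in iCT and 22.6 ± 4.84 in vehicle and passed in neither comparison (adjusted p = 0.066 for iCT against vehicle and 0.949 for relapse against iCT). Slc18a2, which loads histamine into granules of mast cells, was at 0.262 to 1.34 FPKM.

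Prg3, the homologue of major basic protein (chromosome 2, 84988215 to 84993886, plus strand), was the most abundant of the 3 granule protein genes of eosinophils. Its FPKM was 13, 14.7, 12.4 and 11.1 in relapse mice 1 to 4, 6.44, 3.09 and 4.43 in iCT mice 1 to 3, and 32.8, 25.5, 16.6, 12.4 and 18.9 in vehicle mice 1 to 5. All iCT mice were lower than all others, and the relapse mice, at 11.1 to 14.7 FPKM, overlapped the lower vehicle mice. The iCT mean of 4.65 ± 1.68 FPKM was 21.9% of the vehicle mean of 21.3 ± 8.03 FPKM, and the relapse mean of 12.8 ± 1.497 FPKM was 60.3% of it. The log2 difference was -1.95 (SE 0.27) in iCT against vehicle, 1.33 (SE 0.28) in relapse against iCT and -0.62 (SE 0.25) in relapse against vehicle. In iCT mouse 1 the value rested on 1.99 implied fragments, under the level of 3 fragments (9.65 FPKM), and its interval of 0 to 15.6 FPKM covered every relapse mouse and vehicle mouse 4, so it does not separate that mouse from these. Without iCT mouse 1 the differences were -2.17 in iCT against vehicle and 1.54 in relapse against iCT.

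Prg2, the gene of major basic protein itself (chromosome 2, 84980461 to 84983632, plus strand), ended 4.58 kb before Prg3 on the same strand. Its FPKM was 3.45, 2.97, 2.08 and 3.74 in relapse mice, 18.9, 0.605 and 0.200 in iCT mice, and 17.9, 2.93, 19.5, 6.89 and 5.15 in vehicle mice. The vehicle mice alone spanned 2.93 to 19.5 FPKM, and iCT mouse 1 lay near their top while iCT mice 2 and 3 lay under every other mouse. The 18.9 FPKM of iCT mouse 1 rested on 5 implied fragments, with an interval of 1.995 to 35.8 FPKM, and iCT mice 2 and 3 had 3.996 and 1 implied fragments. The intervals of iCT mice 2 and 3 were 0 to 1.21 and 0 to 0.60 FPKM. They lay under the value of every relapse and vehicle mouse, but overlapped some of those mice's intervals, such as that of vehicle mouse 2 (0.31 to 5.55 FPKM). The log2 difference was -1.48 (SE 0.79) in iCT against vehicle, 0.25 (SE 0.83) in relapse against iCT and -1.23 (SE 0.73) in relapse against vehicle. Without iCT mouse 1 the difference was -2.76 in iCT against vehicle and 1.53 in relapse against iCT. For relapse against iCT the sign rested on that group's make-up, since it was -0.50 without iCT mouse 3.

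Epx, eosinophil peroxidase (chromosome 11, 87863998 to 87875536, minus strand), was close to absent. It was above 0 in 2 of the 4 relapse mice (0.0422 and 0.0663 FPKM), in 1 of the 3 iCT mice (0.0773 FPKM) and in 2 of the 5 vehicle mice (0.226 and 0.293 FPKM), and the 12 libraries together held 8.99 implied fragments of it. No difference between groups was detectable at this depth. Mpo, the peroxidase of neutrophils and monocytes, lies 59.6 kb from Epx and stood at 1807 to 3764 FPKM in all mice, while Lpo, 37.9 kb from Epx, did not exceed 0.230 FPKM.

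**Figure D2:**
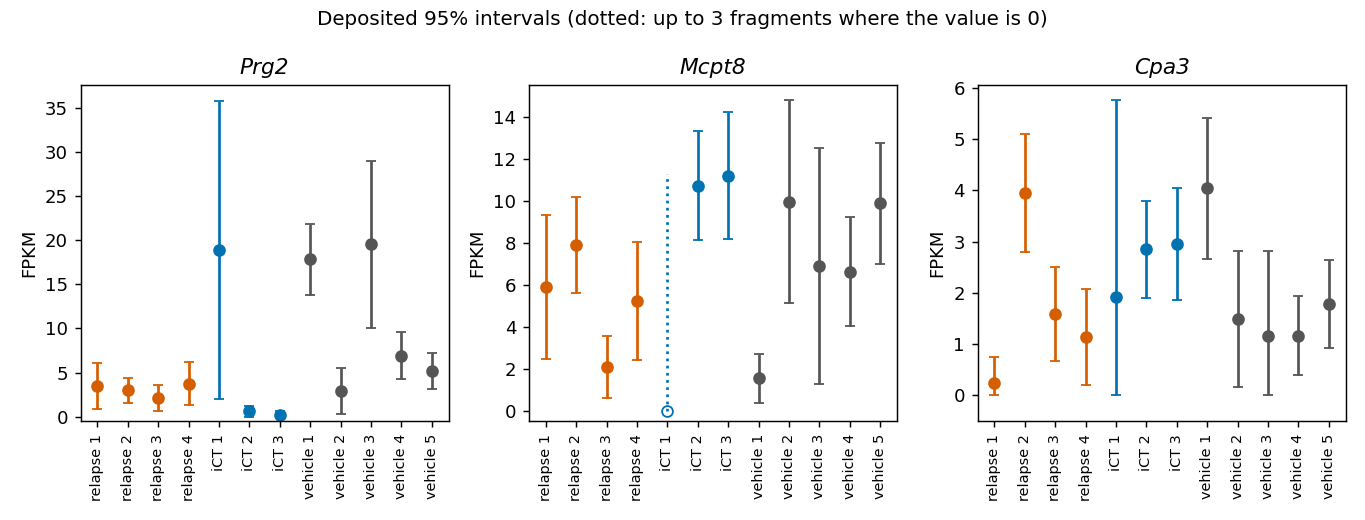
FPKM of Prg2, Mcpt8 and Cpa3 in each of the 12 libraries with the 95% intervals deposited with them; the open point marks a value of 0 and its dotted line the level of 3 fragments. The bars of iCT mouse 1 reach 35.8 FPKM for Prg2 and 5.77 FPKM for Cpa3, and Mcpt8 at 0 there allows up to 11.3 FPKM.

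Siglecf (chromosome 7, 43351341 to 43359470, plus strand) was likewise low in the iCT mice. It stood at 27.9, 38.0, 32.9 and 43.1 FPKM in relapse mice, at 3.27, 10.7 and 13.7 FPKM in iCT mice, and at 38.9, 27.3, 33.9, 35.8 and 33.3 FPKM in vehicle mice. The highest iCT value, 13.7 FPKM, was far under the lowest value of the other groups, 27.3 FPKM, and relapse and vehicle mice overlapped. The iCT mean of 9.22 ± 5.37 FPKM was 27.2% of the vehicle mean of 33.8 ± 4.24 FPKM, and the relapse mean was 35.5 ± 6.51 FPKM. On the log2 scale the difference was -1.94 (SE 0.31) in iCT against vehicle, 1.997 (SE 0.33) in relapse against iCT and 0.06 (SE 0.29) in relapse against vehicle. In iCT mouse 1 the value rested on 1.88 implied fragments, with an interval of 0 to 8.04 FPKM. Without that mouse the iCT mean was 12.2 FPKM, and the differences were -1.40 in iCT against vehicle and 1.46 in relapse against iCT.

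Related lectins of the same chromosome did not all follow Siglecf. Siglecg, the next entry at 48.8 kb, an inhibitory lectin known from B cells, averaged 3.62 ± 1.17 FPKM in relapse mice, 0.759 ± 0.83 in iCT mice and 5.67 ± 1.60 in vehicle mice. It fell in iCT against vehicle (log2 -1.999, SE 0.31, adjusted p = 0.00317 by limma) under all 21 alternatives, and rose in relapse against iCT (log2 1.47, SE 0.33, adjusted p = 0.0175). That rise did not pass without relapse mouse 2 (adjusted p = 0.0515), with no filter, in a fit of the groups compared alone, with array weights or with the block on mouse number (adjusted p = 0.0517 to 0.0758). Cd33 and Siglece, 168 and 292 kb from Siglecf, did not pass: Cd33 had log2 differences of -0.47 in iCT against vehicle and 0.62 in relapse against iCT, and Siglece of 0.54 and 0.03.

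Cpa3, carboxypeptidase A of mast cells (chromosome 3, 20215616 to 20242181, minus strand), was low and overlapped between all groups. Its FPKM was 0.250, 3.94, 1.58 and 1.14 in relapse mice, 1.92, 2.85 and 2.95 in iCT mice, and 4.04, 1.49, 1.17, 1.17 and 1.78 in vehicle mice. The iCT mice lay within the range of the other groups, in each of which 1 mouse stood highest. Fitted on the log2 scale, the difference was 0.35 (SE 0.39) in iCT against vehicle, -0.55 (SE 0.41) in relapse against iCT and -0.20 (SE 0.36) in relapse against vehicle, and 0.49 and -0.69 for the comparisons with iCT when iCT mouse 1 (1 implied fragment) was left out. The sign in relapse against vehicle turned to 0.12 without relapse mouse 1, to 0.018 without vehicle mouse 1 and to 0.064 with array weights.

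Mcpt8, the serine protease of mouse basophils (chromosome 14, 56082164 to 56085197, minus strand), stood at 5.91, 7.91, 2.08 and 5.24 FPKM in relapse mice, at 0, 10.7 and 11.2 FPKM in iCT mice, and at 1.54, 9.97, 6.89, 6.63 and 9.88 FPKM in vehicle mice. The iCT mice held both the lowest value and the highest values of the series. The 0 of iCT mouse 1 allows up to 11.3 FPKM (3 fragments at its depth), so it does not separate that mouse from the others. On the log2 scale the difference was -0.44 (SE 0.75) in iCT against vehicle, 0.16 (SE 0.78) in relapse against iCT and -0.28 (SE 0.69) in relapse against vehicle. Without iCT mouse 1 the sign turned, to 0.75 in iCT against vehicle and -1.03 in relapse against iCT, and without relapse mouse 3 the difference of relapse from vehicle was 0.03. The sign in relapse against iCT also turned without relapse mouse 2 (-0.037), with quantile normalization (-0.29) and with array weights (-0.80), and that in iCT against vehicle with array weights (0.298). Ctsg, the cathepsin G gene that lies 14.7 kb from Mcpt8 on the same strand, was at 1995 to 3933 FPKM in every mouse.

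Ms4a2, the beta chain of the IgE receptor (chromosome 19, 11615521 to 11623719, minus strand), was under 1 FPKM in every library. It stood at 0, 0.129, 0.129 and 0.0930 FPKM in relapse mice, at 0, 0.301 and 0.343 FPKM in iCT mice, and at 0.0630, 0.305, 0.328, 0.686 and 0.268 FPKM in vehicle mice. No library held more than 7.68 implied fragments of Ms4a2, and all 12 together held 23.0, so no difference was detectable at this depth. Ms4a3, the adjacent family member 5.78 kb away on the same strand and a marker of granulocyte-monocyte progenitors, differed between the groups in the other direction from Hdc, Prg3 and Siglecf. It stood at 62.8 to 79.5 FPKM in relapse mice, 330.3 to 649 in iCT mice and 89.7 to 150.5 in vehicle mice. Ms4a3 rose in iCT against vehicle (log2 2.06, SE 0.21, adjusted p = 0.000192 by limma) and fell in relapse against iCT (log2 -2.67, SE 0.22, adjusted p = 5.76e-05), under all 21 alternatives in both.

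Fcer1g, the gamma chain (chromosome 1, 171229572 to 171234349, minus strand), varied least among the tested members. It stood at 677.7, 552.2, 685.4 and 655.9 FPKM in relapse mice, at 527.2, 647.6 and 619.5 FPKM in iCT mice, and at 608.6, 687.3, 783.2, 691.4 and 660.8 FPKM in vehicle mice. The groups overlapped throughout. Fitted on the log2 scale, the difference was -0.20 (SE 0.11) in iCT against vehicle, 0.10 (SE 0.11) in relapse against iCT and -0.09 (SE 0.10) in relapse against vehicle. Leaving out iCT mouse 1 gave -0.11 and 0.02 for the comparisons with iCT, and the signs against relapse depended on scaling, with -0.02 in relapse against iCT after median-of-ratios scaling and 0.01 in relapse against vehicle after quantile normalization. The alpha chain gene Fcer1a, which binds IgE, was at 0 in 6 of the 12 libraries and reached at most 1.36 FPKM.

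**Figure D3:**
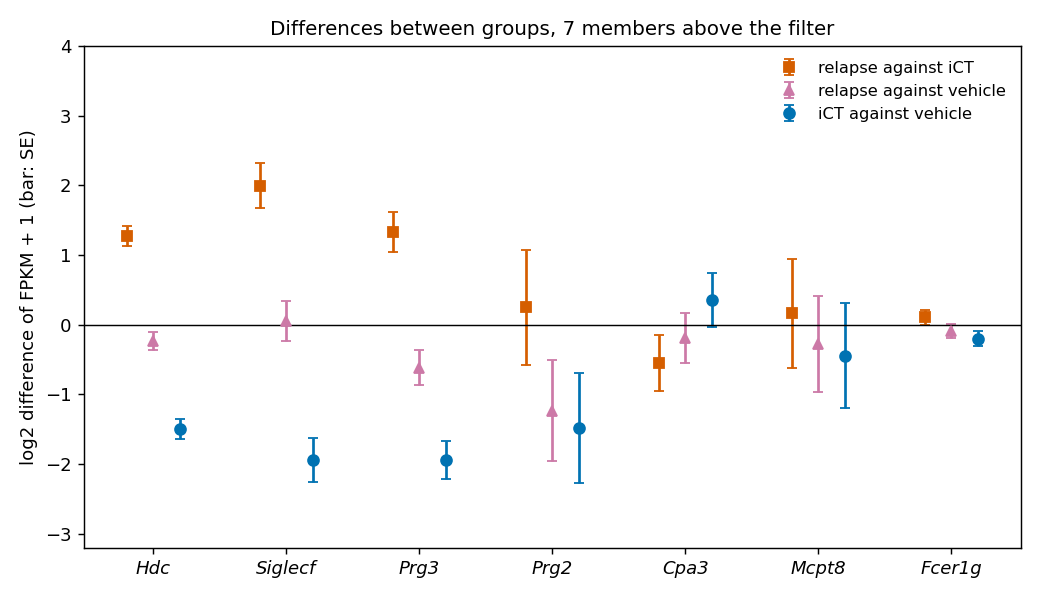
Log2 differences of FPKM + 1 between groups for the 7 members above the filter, with SE bars, in relapse against iCT, relapse against vehicle and iCT against vehicle. Hdc, Siglecf and Prg3 lie at -1.503 to -1.95 in iCT against vehicle and at 1.27 to 1.997 in relapse against iCT; the sign of Mcpt8 in both comparisons with iCT turns without iCT mouse 1.

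Set side by side, 3 of the 7 members above the filter (Hdc, Prg3 and Siglecf) were lower in every iCT mouse than in every vehicle mouse, where 10.6% of all genes tested were, and 0 of 7 were higher, where 5.49% were. In relapse against iCT these 3 were higher without overlap, as were 16.9% of all genes, and 0 were lower, as were 6.33%. In relapse against vehicle 0 of the 7 were separated in either direction, against 9.72% of all genes higher and 4.03% lower. Over all 11019 genes limma called 3.31% higher (365 genes) and 6.31% lower (695 genes) in iCT against vehicle, 6.62% higher (729 genes) and 3.10% lower (342 genes) in relapse against iCT, and 0% (0 genes) in relapse against vehicle, with 1604 there at an unadjusted p under 0.05. In relapse against vehicle 595 genes passed when only those groups were fitted and 971 with array weights. Since the members were picked with these contrasts in view, nothing is read from their counts. The other gene lists were also drawn up with earlier results of these data known, so their counts are likewise a description. The comparisons share their mice, so the lower level in iCT against vehicle and the higher level in relapse against iCT rest on the same 3 iCT libraries. In bulk RNA, fewer cells that express a gene and less of its RNA per cell cannot be told apart.

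The balance of directions over all genes depended on scaling. In iCT against vehicle median-of-ratios scaling gave 514 genes higher and 621 lower, and quantile normalization 526 and 570. In relapse against iCT the split was 491 higher and 531 lower, and 431 and 420. The median log2 difference of all genes was -0.08 in iCT against vehicle and 0.16 in relapse against iCT as deposited, and 0.05 and 0.02 in relapse against iCT after the 2 scalings.

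The members were read against the defining markers of their cells. Of 25 mast cell genes besides the members 6 passed the filter, 16 were under 1 FPKM in every library and 8 were at 0 in all of them (Cma2, Mcpt1, Mcpt2, Mcpt9, Mrgprb2, Rgs13, Tpsab1 and Tpsg1). The tryptase gene Tpsb2 and the chymase gene Mcpt4 were above 0 in iCT mouse 3 only, at 1.87 and 0.484 FPKM. Of 23 eosinophil genes 9 passed the filter and 9 were under 1 FPKM in every library, and the eotaxin receptor gene Ccr3 and the interleukin-5 receptor gene Il5ra did not exceed 0.745 and 0.717 FPKM. Of 16 basophil genes 8 passed and 6 were under 1 FPKM in every library, Il4 and Il13 were at 0 in all libraries, and Cd200r3 did not exceed 0.260 FPKM. Prss34, a protease of basophils, stood at 0 to 15.0 FPKM, with log2 differences of 0.79 (SE 0.78) in iCT against vehicle and -0.95 (SE 0.81) in relapse against iCT, neither past the threshold. Values of the Ear genes and of the tryptase genes, which have near-identical copies, depend on how shared reads were divided. The label thus names where these genes are best known. In the sorted cells the tryptase, chymase, receptor and cytokine genes just named did not exceed 1.87 FPKM. The member Cpa3, also a mast cell protease, reached 4.04 FPKM, and other genes of the basophil and eosinophil lists were expressed.

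**Figure D4:**
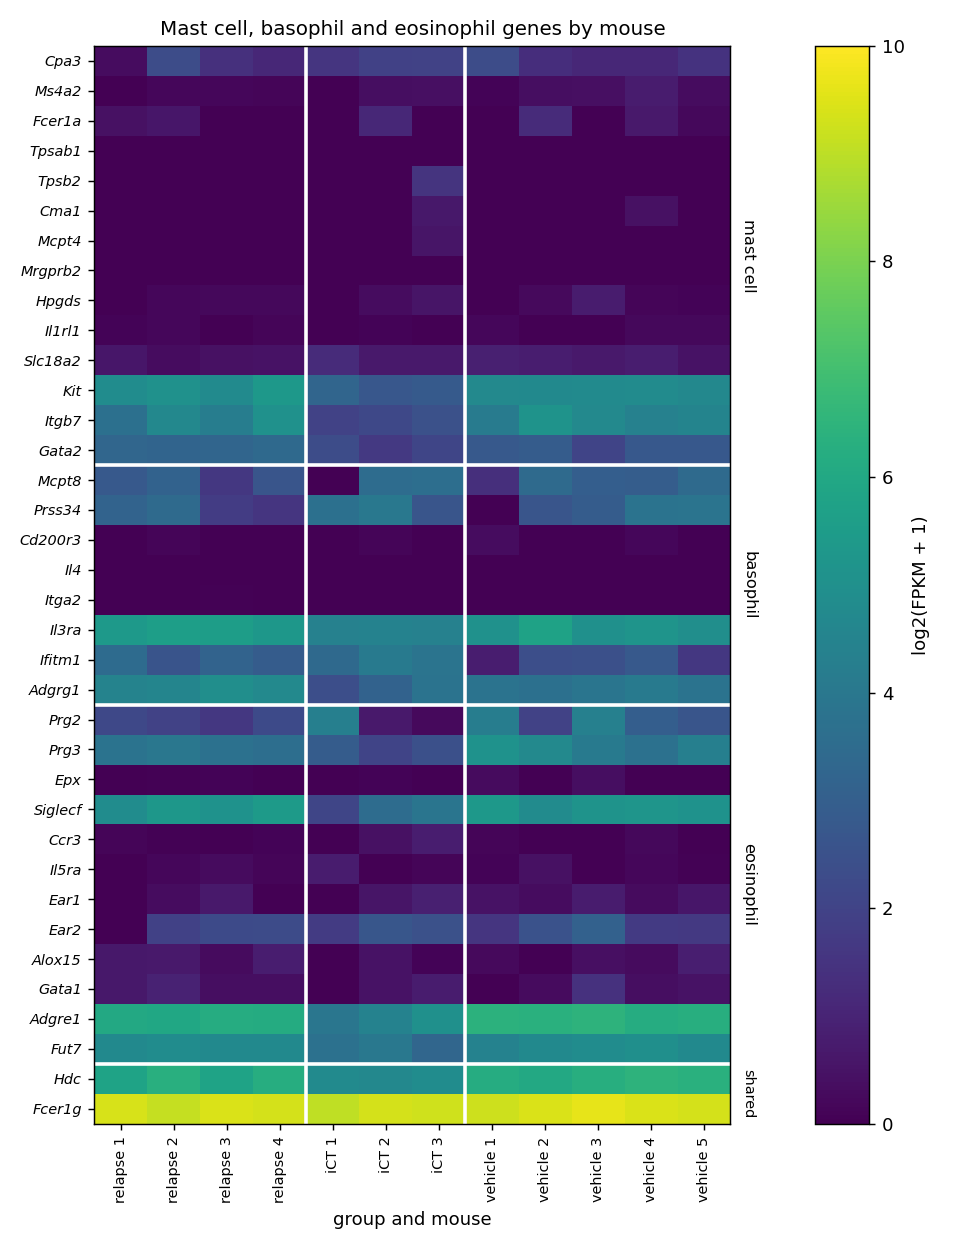
Log2(FPKM + 1) of listed mast cell, basophil and eosinophil genes and of the 9 members, in rows, by mouse, in columns from relapse through iCT to vehicle. Tpsab1, Mrgprb2, Il4, Ccr3 and Il5ra stay dark in all 12 libraries, but the basophil proteases Mcpt8 and Prss34 do not (vehicle means of 6.98 and 7.66 FPKM). Kit, Itgb7, Adgre1, Fut7, Siglecf and Hdc are darker in the 3 iCT columns.

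The lineage genes that were expressed included several that fell in iCT. Of the 6 tested mast cell genes 2 fell and 0 rose in iCT against vehicle (median log2 -0.66, against -0.08 over all genes), and 3 rose and 0 fell in relapse against iCT (median 0.91, against 0.16). Among all genes tested 6.31% fell and 3.31% rose in iCT against vehicle, and 6.62% rose and 3.10% fell in relapse against iCT. Kit, the receptor for stem cell factor on mast cells and on progenitors, averaged 31.6 ± 5.64 FPKM in relapse, 6.84 ± 1.65 in iCT and 25.8 ± 1.21 in vehicle mice (log2 -1.79, SE 0.15, adjusted p = 8.67e-05 in iCT against vehicle). Itgb7, an integrin chain that guides mast cell progenitors to tissue, averaged 21.8 ± 8.92, 3.65 ± 0.815 and 23.6 ± 6.61 FPKM in relapse, iCT and vehicle mice (log2 -2.38, SE 0.29, adjusted p = 0.000576). Gata2, a transcription factor of mast cells, basophils and stem cells, did not pass in iCT against vehicle (log2 -0.62, adjusted p = 0.0791) and rose in relapse against iCT (log2 1.26, SE 0.22, adjusted p = 0.00589). These adjusted p-values are limma's, and the 3 genes passed under all 21 alternatives in the comparisons where they are said to have changed. Srgn, the proteoglycan core that holds granule proteases, was the most abundant of the list at 1305 to 2107 FPKM and passed in no comparison.

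Of the 8 basophil genes tested, 2 rose and 1 fell in iCT against vehicle (3.31% and 6.31% of all genes). In relapse against iCT 3 rose and 1 fell (6.62% and 3.10% of all genes). Il3ra, the alpha chain of the interleukin-3 receptor, averaged 43.3 ± 5.07 FPKM in relapse, 20.3 ± 0.455 in iCT and 36.2 ± 9.54 in vehicle mice. It fell in iCT against vehicle (log2 -0.77, SE 0.17, adjusted p = 0.0157 by limma; 0.0561 to 0.0721 with no filter, in the fit of these groups alone and with array weights) and rose in relapse against iCT (log2 1.05, SE 0.18, adjusted p = 0.00496). Adgrg1, an adhesion receptor, rose in relapse against iCT (log2 1.53, SE 0.26, adjusted p = 0.00497 by limma). Ifitm1, an interferon-induced membrane protein, rose in iCT against vehicle (log2 1.78, SE 0.39, adjusted p = 0.0175), but not with no filter, in the fit of these groups alone or with the block on mouse number (adjusted p = 0.0587 to 0.0849). Of the 9 eosinophil genes tested, 1 rose and 2 fell in iCT against vehicle, and 2 rose in relapse against iCT. The 1 that rose in iCT, Cd300lf, passed under 7 of the 21 alternatives. Adgre1, which encodes F4/80 and also marks macrophages, averaged 66.8 ± 4.81 FPKM in relapse, 22.3 ± 8.88 in iCT and 80.3 ± 6.06 in vehicle mice (log2 -1.87, SE 0.19, adjusted p = 0.000192 in iCT against vehicle by limma). Fut7, a fucosyltransferase that builds selectin ligands, averaged 26.6 ± 0.847, 12.01 ± 3.04 and 26.3 ± 3.72 FPKM in relapse, iCT and vehicle mice (log2 -1.09, SE 0.16, adjusted p = 0.00208 by limma), and both genes also rose in relapse against iCT under all 21 alternatives.

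Of 17 tested genes that carry the signal from the gamma chain of the IgE receptor, 3 fell and 0 rose in iCT against vehicle (median log2 -0.11), where 6.31% of all genes fell and 3.31% rose. In relapse against iCT 3 rose and 0 fell (median 0.32), where 6.62% of all genes rose and 3.10% fell. Lcp2, 1 of these 3, passed under 4 of the 21 alternatives. Lat2, the adaptor NTAL of mast cells and B cells, had the largest difference of the 17 genes in iCT against vehicle. It stood at 12.8, 27.9, 22.9 and 25.5 FPKM in relapse mice, 6.71, 3.90 and 5.80 in iCT mice, and 26.7, 18.8, 30.7, 23.6 and 22.0 in vehicle mice. All iCT mice were lower than all others. Lat2 fell in iCT against vehicle (log2 -1.98, SE 0.24, adjusted p = 0.000645 by limma) and rose in relapse against iCT (log2 1.82, SE 0.25, adjusted p = 0.00189), under all 21 alternatives in both. Prkcb, a protein kinase C, averaged 25.9 ± 2.78 FPKM in relapse, 13.1 ± 3.24 in iCT and 22.7 ± 2.51 in vehicle mice, with a log2 difference of -0.76 (SE 0.15, adjusted p = 0.0111 by limma; 0.0544 with array weights and 0.0849 with the block on mouse number) in iCT against vehicle and 0.95 (SE 0.16, adjusted p = 0.00503) in relapse against iCT. Tec, a kinase, fell in iCT against vehicle (log2 -0.82, adjusted p = 0.0307) but not without iCT mouse 1 or vehicle mouse 2, 4 or 5 (adjusted p = 0.0501 to 0.0844), nor under 4 other settings (adjusted p = 0.0861 to 0.129). Among the kinases next to the receptor, Lyn had 34.7 to 40.5 FPKM in relapse, 26.6 to 41.7 in iCT and 26.8 to 37.1 in vehicle mice, and Lyn, Syk and Btk passed in no comparison.

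Receptors that share the gamma chain or the related adaptor Tyrobp moved in both directions in iCT against vehicle. The list also held Tyrobp itself. Of 17 genes tested, 4 rose and 2 fell in iCT against vehicle, where 3.31% of all genes rose and 6.31% fell. Tyrobp was 1 of the 2 that fell (log2 -0.40, adjusted p = 0.0299 by limma). In relapse against iCT 1 rose and 4 fell, where 6.62% of all genes rose and 3.10% fell. The 1 that rose was Tyrobp (log2 0.46, adjusted p = 0.0196 by limma), not a receptor. Tyrobp passed under 12 and 13 of the 21 alternatives in these comparisons. Of the 4 that rose in iCT, Clec4d passed under 8 of 21 alternatives and Clec4n under 10 of the 20 in which it was tested. Fcgr1, the high-affinity IgG receptor, averaged 0.355 ± 0.243 FPKM in relapse, 3.03 ± 1.18 in iCT and 0.486 ± 0.397 in vehicle mice (log2 1.44, SE 0.27, adjusted p = 0.00765 in iCT against vehicle and log2 -1.55, SE 0.28, adjusted p = 0.00731 in relapse against iCT, by limma). The rise in iCT did not pass with a pseudocount of 0.1 or the block on mouse number (adjusted p = 0.0507 to 0.0795). Trem2, a lipid receptor of macrophages, averaged 0.714 ± 0.407, 5.57 ± 2.22 and 1.33 ± 0.721 FPKM in relapse, iCT and vehicle mice (log2 1.495, SE 0.29, adjusted p = 0.0093 in iCT against vehicle by limma; 0.0781 with array weights). Fcgr3, the abundant low-affinity IgG receptor that needs the gamma chain, averaged 216.9 ± 20.7 FPKM in relapse, 201.6 ± 17.3 in iCT and 262.6 ± 17.4 in vehicle mice (log2 -0.38, SE 0.10, adjusted p = 0.0283 in iCT against vehicle by limma). Its fall did not pass without iCT mouse 3 or vehicle mouse 3 or 5 (adjusted p = 0.0615 to 0.0677), nor with no filter, quantile normalization, the fit of these groups alone or the block on mouse number (adjusted p = 0.0561 to 0.157).

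**Figure D5:**
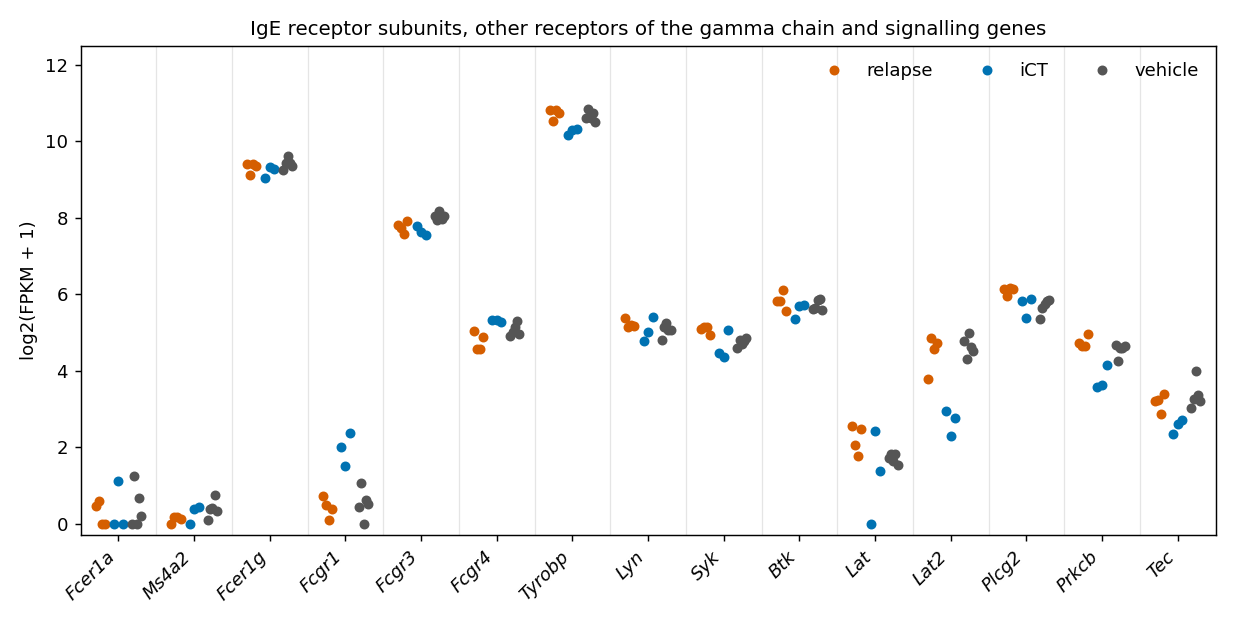
Log2(FPKM + 1) of the IgE receptor subunits, of other receptors and the adaptor Tyrobp, and of signalling genes, each point a mouse, with relapse, iCT and vehicle from left to right within a gene. Fcer1g overlaps between groups (mean 649.7 FPKM) while Fcer1a and Ms4a2 stay near 0, and Lat2 and Prkcb lie lower in the iCT mice.

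Receptors for the growth factors of these lineages and their transcription factors were read from lists of 16 and 26 genes. Of 8 cytokine receptor genes tested 2 rose and 3 fell in iCT against vehicle (3.31% and 6.31% of all genes). In relapse against iCT 3 rose and 0 fell (6.62% and 3.10% of all genes). Kit and Il3ra, counted above with the mast cell and basophil genes, were among those that fell and those that rose. Gata2 likewise counts in both the mast cell and the basophil list, so the counts of different lists are not independent. Crlf2, the receptor for TSLP, averaged 120.9 ± 18.7 FPKM in relapse, 54.9 ± 18.1 in iCT and 100.5 ± 14.5 in vehicle mice (log2 -0.91, SE 0.20, adjusted p = 0.0184 in iCT against vehicle and log2 1.17, SE 0.21, adjusted p = 0.00735 in relapse against iCT, by limma). Csf2rb, the beta chain shared by the receptors for interleukin-3, interleukin-5 and GM-CSF, went the other way, with 32.3 ± 0.858, 37.5 ± 5.45 and 25.7 ± 2.44 FPKM in relapse, iCT and vehicle mice (log2 0.53, SE 0.11, adjusted p = 0.0167 in iCT against vehicle by limma). Crlf2 lost its call in iCT against vehicle under 4 alternatives (adjusted p = 0.0588 to 0.108) and Csf2rb under 2 (adjusted p = 0.0751 and 0.102), all of them settings other than leaving out a mouse. The rise of Crlf2 in relapse against iCT did not pass when only these groups were fitted (adjusted p = 0.0525).

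Of 20 transcription factor genes tested 1 rose and 4 fell in iCT against vehicle (median log2 -0.26), where 3.31% of all genes rose and 6.31% fell. The 1 that rose, Spi1, passed under 7 of the 21 alternatives. In relapse against iCT 7 rose and 0 fell (median 0.31), where 6.62% of all genes rose and 3.10% fell. Cebpa, which drives granulocyte and monocyte fate and is needed early for eosinophils, averaged 55.8 ± 8.79 FPKM in relapse, 27.8 ± 7.23 in iCT and 53.8 ± 6.23 in vehicle mice (log2 -0.95, SE 0.17, adjusted p = 0.00648 in iCT against vehicle, and log2 1.001, SE 0.18, adjusted p = 0.00701 in relapse against iCT, by limma). Irf8, a factor of monocytes that eosinophil progenitors also need in mice, averaged 51.6 ± 18.9, 9.27 ± 0.711 and 42.7 ± 12.4 FPKM in relapse, iCT and vehicle mice (log2 -2.04, SE 0.29, adjusted p = 0.00158 in iCT against vehicle by limma). Stat5b, which signals from the interleukin-3 and interleukin-5 receptors, had log2 differences of -0.96 (adjusted p = 0.026) in iCT against vehicle and 1.31 (adjusted p = 0.00873 by limma) in relapse against iCT. The fall of Stat5b in iCT did not pass without iCT mouse 1 or any of vehicle mice 2 to 5 (adjusted p = 0.0512 to 0.066), nor under 4 other settings (adjusted p = 0.0754 to 0.113). In relapse against iCT the rises of Cebpa and Stat5b did not pass when only these groups were fitted (adjusted p = 0.0515 and 0.0626). Cebpe, a factor of late granulocytes and eosinophils, passed in no comparison, and Gata1 stayed under 1 FPKM in 11 of 12 libraries.

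Of 19 granule packaging genes tested 3 fell and 0 rose in iCT against vehicle (6.31% and 3.31% of all genes), and 3 rose and 0 fell in relapse against iCT (6.62% and 3.10% of all genes). Lamp1, a lysosome and granule membrane protein, averaged 428.9 ± 19.9 FPKM in relapse, 330.8 ± 10.6 in iCT and 454.2 ± 24.8 in vehicle mice (log2 -0.46, SE 0.08, adjusted p = 0.00402 in iCT against vehicle by limma). Of 6 leukotriene and prostaglandin D2 genes 1 rose and 1 fell in each of these comparisons. Lta4h, which makes leukotriene B4, averaged 320.8 ± 20.4, 266.4 ± 1.62 and 375.2 ± 12.1 FPKM in relapse, iCT and vehicle mice (log2 -0.49, SE 0.07, adjusted p = 0.00226 in iCT against vehicle by limma). Alox5, 5-lipoxygenase, which starts leukotriene synthesis, averaged 11.2 ± 4.68, 23.8 ± 8.28 and 8.51 ± 1.98 FPKM (log2 1.36, SE 0.29, adjusted p = 0.0157 in iCT against vehicle by limma). Alox5 did not pass with no filter or with the block on mouse number (adjusted p = 0.0695 and 0.0716). In relapse against iCT the calls of both genes were unstable, since Lta4h passed under 5 and Alox5 under 7 of the 21 alternatives. In relapse against vehicle 0 genes of any list passed limma.

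Genes were ranked by how closely their pattern over the 12 libraries followed a member, as the mean squared difference of standardized log2(FPKM + 1) values among 7837 candidate genes, where 0 is an identical pattern. The genes nearest to Hdc were Btg1 (0.0719), Lat2 (0.0871), Cd44 (0.0972), Rgs2 (0.101) and Prcp (0.108). Those nearest to Siglecf were Cd300lb (0.0312), Cd93 (0.0397), Cep85l (0.0444), Narf (0.05) and Ly86 (0.0536), and those nearest to Prg3 were Rgs10 (0.119), Npc2 (0.145), Erlin1 (0.147), Rab5b (0.196) and Ap1s2 (0.196). Hdc and Siglecf differed by 0.227, Hdc and Prg3 by 0.347 and Siglecf and Prg3 by 0.634. Hdc, Siglecf and Prg3 were added to this ranking after their values were seen. The other tested members lay further from Hdc, Siglecf and Prg3 than these lay from each other, but not all equally far. Prg2 differed from them by 0.934 (Prg3, its neighbour and its nearest member) to 1.949 (Siglecf). Fcer1g differed from them by 0.9496 to 1.501, Mcpt8 by 1.186 to 2.148, and Cpa3 by 2.175 (Prg3) to 2.449 (Hdc). Prg2 and Mcpt8 differed by 3.22. The genes named above as nearest to Hdc, Siglecf and Prg3 lay closer to each than any member did. Nearest to Mcpt8 were Wrap53 (0.153) and Slc25a10 (0.173), to Prg2 Sqrdl (0.154) and Eid1 (0.191), and to Cpa3 4930549G23Rik (0.412) and Ndufb4 (0.424). All values share the same 12 libraries and their depths, and iCT mouse 1 weighs on each pattern.

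Markers of several other marrow cell types differed between iCT and vehicle mice, some higher and some lower. Each list's sum is carried by its most abundant genes and is not the level of a cell type. Ly6c2 averaged 2191 FPKM in vehicle mice, S100a8 and S100a9 7529 and 5504 in iCT mice, and Igfbp4 99.0 in iCT mice. These belong to the monocyte, mature neutrophil and stroma lists in that order, and S100a8 and S100a9 passed in no comparison. Adgre1, Irf8 and Fcgr1 were also counted in lists above. The shares over all genes were 3.31% higher and 6.31% lower in iCT against vehicle, and 6.62% and 3.10% in relapse against iCT. Of the tissue macrophage genes 7 of 10 tested rose and 1 fell in iCT against vehicle, with a summed level of 122.0 to 147.5 FPKM in relapse, 241.0 to 354.7 in iCT and 165.2 to 207.4 in vehicle mice. Of the osteoclast genes 5 of 7 rose, with sums of 31.2 to 92.0 FPKM in relapse, 158.8 to 680.6 in iCT and 20.1 to 37.4 in vehicle mice. Of the mature neutrophil genes 3 of 14 rose and 0 fell (6619 to 15527 FPKM in relapse, 14558 to 19046 in iCT and 3880 to 14661 in vehicle mice). Of the monocyte genes 5 of 11 fell and 1 rose (1035 to 2257 FPKM in relapse, 652 to 727 in iCT and 2354 to 2636 in vehicle mice), and of the erythroid genes 3 of 10 fell and 0 rose (65.2 to 186 FPKM in relapse, 21.4 to 33.3 in iCT and 23.1 to 434 in vehicle mice). Megakaryocyte genes had 1 of 2 tested higher and summed to 2.71 to 5.46 FPKM in relapse, 12.04 to 27.4 in iCT and 2.01 to 8.07 in vehicle mice, and stroma and endothelium genes had 2 of 6 higher and 1 lower, with sums of 53.0 to 91.4, 109.65 to 124.4 and 53.2 to 111.0 FPKM in relapse, iCT and vehicle mice. Leukaemia genes, a list that shares Kit with the mast cell list, summed to 489.9 to 541.0 FPKM in relapse, 302.6 to 402.1 in iCT and 397.9 to 462.3 in vehicle mice; 2 of 9 tested fell and 0 rose in iCT against vehicle, and 4 rose and 0 fell in relapse against iCT. Of the B and plasma cell genes 1 of 4 fell in iCT against vehicle and of the T and natural killer cell genes 0 of 2 passed, and the sums of both lists overlapped between iCT and vehicle mice. In these lists the entry at 0 in every library was 1 of the 2 entries of Mecom, a leukaemia gene. The part of these markers in the differences of Hdc, Prg3, Siglecf and the other genes above was not tested.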

How the data were processed

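Per the labels' protocols, an RNeasy micro kit gave the RNA and NEB kits the libraries. The authors aligned reads with STAR and deposited Cufflinks gene tables in FPKM with 95% intervals, per the file headers and the submitters' processing notes, which give no versions. The notes name mm9, but for 99.4% of 23030 symbols the locus overlapped its namesake in GENCODE on GRCm38, so coordinates are given as GRCm38, counted from 1. The sources used here give no strandedness, gene models or treatment of reads with several hits. FPKM depends on the library's total, so abundant genes move the rest.

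Comparisons used log2(FPKM + 1) in limma 3.58.1 (R 4.3.3); this scale understates changes of low genes. Genes at 1 FPKM or more in at least 3 libraries (11019) were fitted in 1 model over all 12 libraries with group as its term, a variance trend and Benjamini-Hochberg adjustment at 0.05. The fit was run on simulated data, with 200 genes shifted by known amounts and normal noise of each gene's own SD. The simulated data had no shallow library, so they do not check the fit for depth as unequal as here. Implied fragments are the square of 2 times FPKM over the interval's half-width; 44.6% to 47.1% of low values gave whole numbers within 0.02, so no count test was run. Members and lists were chosen with earlier results of these data known. Genes named were all 9 members, up to 4 per list with the smallest p among those past the threshold, and the most abundant ones. Others are named where a count or a sum rests on them, and lists of other cell types are given as counts and sums. Alternatives comprised no filter, pseudocounts of 0.1 and 0.5, a filter at 5 FPKM, median-of-ratios scaling, quantile normalization, fits of only the groups compared, array weights, a block on mouse number and each library left out. Where a result says 21 alternatives, these are meant.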

Additional observations from a re-analysis of the deposited data

Results flagged for a closer look

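In vehicle mouse 1 Cpa3 stood at 4.04 FPKM, apart from 1.17 to 1.78 FPKM in the other vehicle mice, the only one of 18 groups of a member (relapse and vehicle, 9 members) in which the highest or lowest mouse stood this far from the rest. Chance flags about 1 group in 20. The iCT group, with 3 mice, was too small for this check.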

How the results depend on the processing

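Of 438 values of the members' 21 differences under the alternatives, 432 stayed within the spread between mice of the reported value and 6 moved: Prg2 and Siglecf in both comparisons with iCT when iCT mouse 1 was left out, and Siglecf in both with array weights. The spread is each gene's own SD within groups, so variable genes could change sign and still count as staying. Mcpt8 did so in both comparisons with iCT without iCT mouse 1 (0.75 and -1.03). The numbers of genes past the threshold were 1060 in iCT against vehicle, 0 in relapse against vehicle and 1071 in relapse against iCT. In that order they were 443, 3 and 402 with no filter, 341, 595 and 236 when only the groups compared were fitted, and 457, 971 and 603 with array weights; the cause was not tested. Leaving out each mouse gave 569 to 2722, 0 to 5 and 529 to 1855. In iCT against vehicle the count was 686 without iCT mouse 1, 2722 without iCT mouse 2, 618 without vehicle mouse 3 and 569 without vehicle mouse 5. In relapse against iCT it was 593, 529, 583 and 536 without relapse mice 1 to 4 and 1855 without iCT mouse 3. In relapse against vehicle it was 5 without iCT mouse 1 and 1 without vehicle mouse 4. With mouse number as a replicate block the counts were 197, 0 and 372. The labels number mice within groups. Deviations from the group means correlated at -0.0911 to 0.0990 between mice of the same number (10 pairs). Between others (37 pairs) the correlations were -0.116 to 0.148. With overlapping ranges, the check cannot tell whether mice of the same number shared anything else. Cpa3 was not tested at the filter of 5 FPKM. Depth limits Epx, Ms4a2, Cpa3, Prg2 and Mcpt8, and every member in iCT mouse 1 except Fcer1g and Hdc.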
